A study of Mus musculus with 2 samples.

Results

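Epithelial junction and polarity genes were followed in embryonic mouse lung at E13.5, while the airways are branching. The set was a list of 32 genes that epithelia express in common, with keratins and claudins left out. A gene was found when a probe set of the array carried its symbol and no other, and the probe set with the highest mean of both arrays was taken. All 32 were found, of 19938 genes read in this way, and each of the 32 was read by 1 probe set. The label covers only some of them: beside 16 genes of junctions, adhesion and polarity, the list holds transcription and splicing factors, membrane proteases with their inhibitors, and genes of apical transport.

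Wild type lungs were set against lungs labelled Etv4;5 knockout. Etv4 and Etv5 are ETS transcription factors of the distal lung epithelium that are induced by fibroblast growth factor signalling. Each genotype was represented by 1 Affymetrix array of RNA pooled from 3 samples, which gives 2 arrays without replication. A title abbreviates the knockout as CKO and a description as DKO. Neither a Cre driver, the deleted parts nor the sex of the embryos was given. No test across samples was possible, every difference compares these 2 pools, and the number of arrays limits the precision.

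An epithelial sheet is held together by adherens junctions, built on E-cadherin, by desmosomes, which tie into keratin filaments, and by tight junctions, which seal the space between cells near the apex. The Crumbs and Par complexes mark the apical side and Scribble complex proteins such as the Lgl family the basal and lateral side. In the branching lung this sheet lines the airways, and grainyhead-like and Ovol transcription factors and Esrp splicing factors maintain its epithelial state.

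Both arrays had close medians (7.60 in wild type and 7.58 in knockout) over 35557 probe sets. Etv4 had a value of 7.59 in wild type and 6.96 in knockout (1.55-fold lower), with a mean below that of the median gene. Etv5 was at 11.51 and 11.28 (1.17-fold lower), and its other probe set at 11.41 and 11.17. Both targeted genes thus read lower in the knockout pool, Etv5 by a small amount. Xist, the RNA that silences an X chromosome in female cells, was at 12.34 and 5.74, so the pools also differed in this sex-linked RNA. The Y-linked genes Uty (8.99 and 9.64), Eif2s3y (9.90 and 10.44) and Kdm5d (9.05 and 9.58) were higher in the knockout pool. Of the 32 genes, 0 lie on the X or Y chromosome in the RefSeq gene table. These sex-linked RNAs and the genotype differ between the same 2 pools. The part of sex in the values below therefore cannot be told apart from that of genotype, and was not tested.

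Most of the 32 genes had higher values in the knockout pool, by small amounts. Each difference is the knockout value less the wild type value, in log2 units. Of the 32, 25 were higher and 4 lower, and 3 had equal values. Their median difference was 0.15, with a range from -0.14 to 0.33. Of all 19938 genes, 33.4% were higher, 33.2% lower and 33.5% equal, with a median of 0.00. The size of each difference was modest: 17 of the 32 were at least 1.1-fold higher, against 9.05% of all genes, and 1 was at least 1.1-fold lower, against 5.96%. A difference of at least 0.32 was found for 1 of the 32, Tmem30b, against 1.1% of all genes, and a difference of at most -0.32 for 0 of the 32, against 0.687%. Past 1.5-fold and past 2-fold there were 0 of the 32 in either direction. Of all genes 0.14% were at least 1.5-fold higher and 0.125% lower, and 0.0301% were at least 2-fold higher and 0.0251% lower.

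The split of higher and lower genes depended on the scaling, because so many values were equal. With the arrays shifted to equal medians, 71.8% of all genes were higher and 28.2% lower, and of the 32 genes 29 were higher and 3 lower. The share of all genes at least 1.1-fold higher was 11.02% under that scaling, with 17 of the 32 again past that fold. The members' median was 0.17 with equal medians, 0.17 with quantile scaling and 0.16 with loess. In bulk tissue, more cells of a type and more RNA per cell cannot be told apart.

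**Figure D1:**
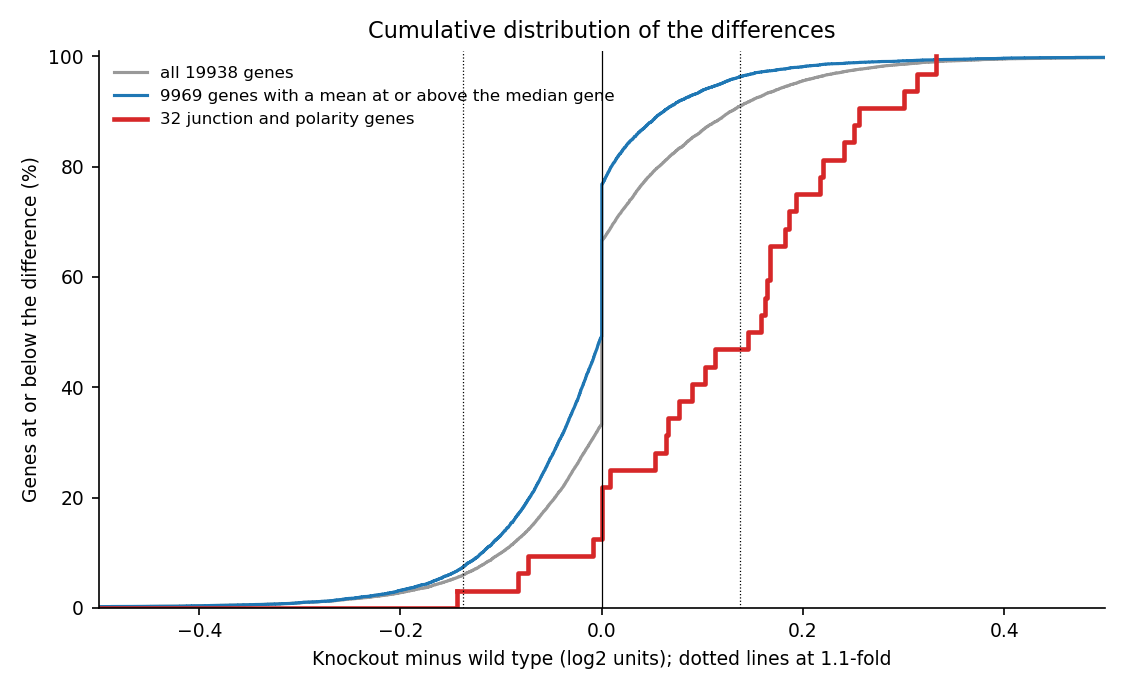
Cumulative share of genes (%, y axis) by knockout minus wild type difference (log2 units, x axis) for all 19938 genes, for the 9969 genes whose mean of both arrays reached that of the median gene, and for the 32 junction and polarity genes; dotted lines mark 1.1-fold. The steps at 0 are genes with equal values, and the curve of the 32 genes lies to the right, with 17 of 32 beyond 1.1-fold higher.

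The brighter genes of the array had another balance as deposited. Among the 9969 genes whose mean of both arrays was at or above that of the median gene (7.94), 23.3% were higher, 49.2% lower and 27.6% equal. Of the 32 genes 26 lay in this brighter range, and 21 of these were higher, 3 lower and 2 equal. Past 1.1-fold stood 14 higher and 1 lower of the 26, against 3.72% and 7.41% of the brighter genes. Under equal medians, where equal genes move up, 59.1% of the brighter genes were higher and 40.9% lower, so the balance by sign depends on the scaling. The 6 dimmer genes were Tmem30b, Perp, Pkp3, Grhl1, Marveld3 and Ovol2. Over the 32 genes the difference had no visible relation to the mean level (Pearson's r = 0.029 and Spearman's rho = 0.0070 across genes of the same 2 arrays, as a description).

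The 4 largest differences belonged to Tmem30b, Cgn, Rab25 and Spint1. Tmem30b encodes a subunit of lipid flippases, Cgn the tight junction plaque protein cingulin, Rab25 a small GTPase of apical recycling and Spint1 an inhibitor of membrane serine proteases. Tmem30b read 6.57 on the wild type array and 6.91 on the knockout array, a difference of 0.33 (1.26-fold). Cgn was at 8.02 and 8.33, a difference of 0.31 (1.24-fold). Of the 32 genes 9 (28.1%) lay above the 95th percentile of the differences of all genes, which was 0.19, and 0 lay below the 5th percentile, which was -0.15. No measure of the spread between pools exists in these data.

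**Figure D2:**
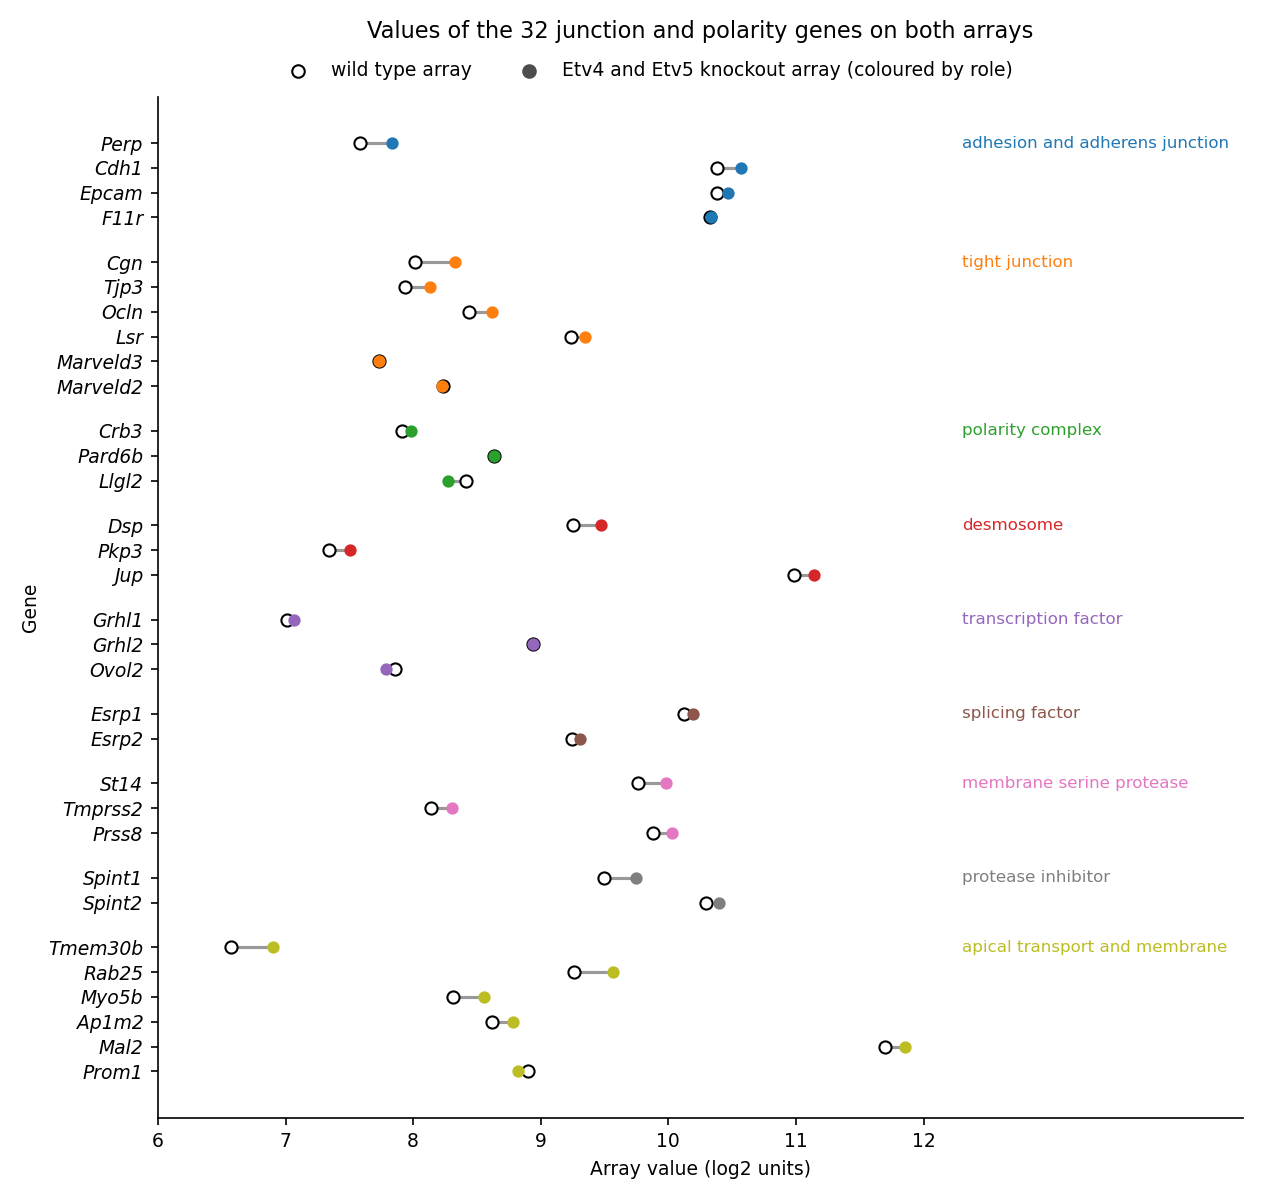
Array values (log2 units, x axis) of the 32 genes, ordered by role, on the wild type array (open circles) and the knockout array (filled circles, coloured by role); each circle is 1 pooled array, and levels of different genes are not comparable. Filled circles lie to the right of open ones for 25 genes, and the clearest exception is Llgl2 at 8.42 in wild type and 8.27 in knockout.

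Promoter sequences are shown for genes at both ends of this range, to set their start regions beside their differences: the 4 genes with the largest differences, and Prom1 and Ovol2, which were lower in knockout. They were taken from RefSeq (GRCm38.p6), from 250 bases before to 50 bases after the start, and 20 of the 32 genes had an entry. The genes without one were Cdh1, Perp, Marveld3, Llgl2, Pkp3, Grhl2, Esrp1, Esrp2, St14, Prss8, Myo5b and Mal2. Capitals mark matches on either strand to AACNGGTT, a motif of grainyhead-like factors, CCGGAA, a core motif of ETS factors, and CACCTG, an E-box bound by Snail and Zeb repressors; of the 26 promoters of these 20 genes, 0 held overlapping matches of different motifs. Windows of a gene with several starts can overlap, as they do for Crb3 and Marveld2. All are written 5′ to 3′ on the strand of the gene.
Tmem30b, chr12:73546346-73546645, minus strand: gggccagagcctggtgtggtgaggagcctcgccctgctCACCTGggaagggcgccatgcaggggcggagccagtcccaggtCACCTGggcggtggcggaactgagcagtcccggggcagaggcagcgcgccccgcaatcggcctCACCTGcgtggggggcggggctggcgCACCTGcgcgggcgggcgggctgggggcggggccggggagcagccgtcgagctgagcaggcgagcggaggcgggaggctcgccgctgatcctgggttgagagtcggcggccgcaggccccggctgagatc
Cgn, chr3:94786433-94786732, minus strand: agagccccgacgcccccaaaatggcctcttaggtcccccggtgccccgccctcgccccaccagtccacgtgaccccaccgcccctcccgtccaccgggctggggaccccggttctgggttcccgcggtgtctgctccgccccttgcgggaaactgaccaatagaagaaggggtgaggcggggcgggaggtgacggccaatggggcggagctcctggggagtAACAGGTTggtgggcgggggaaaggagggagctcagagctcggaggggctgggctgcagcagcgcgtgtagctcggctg
Rab25, chr3:88548230-88548529, minus strand: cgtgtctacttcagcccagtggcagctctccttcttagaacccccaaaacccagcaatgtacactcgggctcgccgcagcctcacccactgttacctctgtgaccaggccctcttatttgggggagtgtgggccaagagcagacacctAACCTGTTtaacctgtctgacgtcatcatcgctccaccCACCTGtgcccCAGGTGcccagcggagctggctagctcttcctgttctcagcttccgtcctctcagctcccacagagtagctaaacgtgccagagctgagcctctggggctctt
Spint1, chr2:119237110-119237409, plus strand: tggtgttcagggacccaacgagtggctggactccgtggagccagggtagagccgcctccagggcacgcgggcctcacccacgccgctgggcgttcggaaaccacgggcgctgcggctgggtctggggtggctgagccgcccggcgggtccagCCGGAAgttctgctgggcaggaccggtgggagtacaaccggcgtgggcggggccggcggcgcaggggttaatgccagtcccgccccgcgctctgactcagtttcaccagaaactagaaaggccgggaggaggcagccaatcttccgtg
Prom1, chr5:44094719-44095018, minus strand: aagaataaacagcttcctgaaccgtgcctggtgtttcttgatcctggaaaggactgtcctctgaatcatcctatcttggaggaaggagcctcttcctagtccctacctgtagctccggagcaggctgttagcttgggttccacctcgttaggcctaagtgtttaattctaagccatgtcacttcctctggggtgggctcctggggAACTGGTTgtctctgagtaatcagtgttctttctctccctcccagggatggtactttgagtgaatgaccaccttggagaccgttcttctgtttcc
Prom1, chr5:44101687-44101986, minus strand: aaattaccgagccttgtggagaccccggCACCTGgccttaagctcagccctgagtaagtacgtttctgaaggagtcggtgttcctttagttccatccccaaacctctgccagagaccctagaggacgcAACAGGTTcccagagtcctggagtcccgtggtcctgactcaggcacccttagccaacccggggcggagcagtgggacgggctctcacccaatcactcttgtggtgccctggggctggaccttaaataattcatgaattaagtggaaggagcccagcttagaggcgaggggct
Ovol2, chr2:144331313-144331612, minus strand: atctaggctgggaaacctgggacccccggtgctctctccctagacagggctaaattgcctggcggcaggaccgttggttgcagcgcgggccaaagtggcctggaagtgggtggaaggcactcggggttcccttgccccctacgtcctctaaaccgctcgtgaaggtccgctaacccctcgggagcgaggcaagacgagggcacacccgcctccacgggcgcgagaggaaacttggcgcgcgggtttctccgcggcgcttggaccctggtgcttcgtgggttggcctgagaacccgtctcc

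The printed promoters differed in which motif they held. Cgn held AACNGGTT, beginning 29 bases before the start, and Rab25 held it 102 bases before the start, together with CACCTG at 64 and 53 bases. The promoter of Tmem30b held CACCTG at 4 positions, and that of Spint1 held CCGGAA beginning 98 bases before the start. Prom1, a lower gene, also held AACNGGTT, at 45 bases before one start and 122 bases before the other, and Ovol2 held none of the motifs. So this grainyhead-like motif was found beside differences of either sign.

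Over the 20 genes with an entry, CACCTG was found in 14 (70.0%), against 22.2% of 15614 array genes with a promoter and 20.2% of all 32851 promoters. AACNGGTT was found in 3 of 20 (15.0%), against 2.27% of the array genes and 2.09% of all promoters. CCGGAA was found in 5 of 20 (25.0%), close to the 22.0% of array genes, and in 14.9% of all promoters. The 5 genes were Crb3, Lsr, Marveld2, Ocln and Spint1, with differences from -0.0083 to 0.26. The 26 promoters had a median GC content of 62.7%, against 57.3% for promoters of array genes, and the part of base composition in these shares was not tested. The 14 genes with CACCTG had a median difference of 0.11 and the 6 without it 0.16, and the 3 genes with AACNGGTT had 0.30 and the 17 without it 0.11. The 5 genes with CCGGAA had 0.11 and the 15 without it 0.16. These few genes allow no reading of the motifs. A match is a description of the letters and says nothing of binding.

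Adhesion genes were higher or close to equal. Cdh1, which encodes E-cadherin, the core of the adherens junction, read 10.38 on the wild type array and 10.57 on the knockout array, a difference of 0.19 (1.14-fold). Perp, which encodes a tetraspan protein of desmosomes, was at 7.59 and 7.84, a difference of 0.25. Epcam, an adhesion molecule of epithelia, was at 10.38 and 10.47, a difference of 0.090. F11r, which encodes the junctional adhesion molecule JAM-A, was at 10.33 and 10.34, and its difference of 0.0078 was among the smallest of the 32. All 4 were above 0 as deposited, against 33.4% of all genes, and under each other scaling, with Cdh1 between 0.19 and 0.21. The shift to equal medians raises every difference, so there these signs could not turn. Under it 71.8% of all genes were higher.

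Tight junction genes were higher in 4 of 6, against 33.4% of all genes as deposited, with Marveld2 and Marveld3 near 0. The plaque proteins cingulin and ZO-3 were both higher: Cgn by 0.31, as given above, and Tjp3, which encodes ZO-3, by 0.19 (7.94 in wild type and 8.13 in knockout). Lsr, which encodes a protein of tricellular contacts, was at 9.24 and 9.35, a difference of 0.11. The members of the MARVEL family of tight junction membrane proteins differed among themselves. Ocln, which encodes occludin, was at 8.43 and 8.62, a difference of 0.18 (1.13-fold). Marveld2, which encodes tricellulin, was at 8.24 and 8.23, a difference of -0.0083, whose sign turned under equal medians and quantile scaling. Marveld3 was listed at 7.73 on both arrays. Ocln and Marveld2 are next to each other among protein-coding genes of chromosome 13 in the RefSeq table, and only Ocln was past 1.1-fold.

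Polarity genes had differences of either sign, and 1 of them had the lowest difference of all 32. Crb3, the Crumbs protein of simple epithelia, read 7.91 on the wild type array and 7.98 on the knockout array, a difference of 0.066. Pard6b, the adaptor that links Cdc42 to atypical protein kinase C in the Par complex, was listed at 8.63 on both arrays. Llgl2, the basolateral Lgl protein that opposes the Par complex, was at 8.42 and 8.27, a difference of -0.14. It was the one member at least 1.1-fold lower as deposited and with loess, and lay short of that fold under equal medians and quantile scaling, at -0.13 and -0.12. The median of these 3 polarity genes, 0.00, is the value of Pard6b, against a median of 0.15 for all 32. Equal values on both arrays were listed for 28.2% of probe sets.

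All 3 desmosome genes were higher, against 33.4% of all genes as deposited. Dsp, which encodes desmoplakin, the link to keratin filaments, read 9.25 on the wild type array and 9.47 on the knockout array, a difference of 0.22 (1.16-fold). Jup, which encodes plakoglobin, shared with adherens junctions, was at 10.98 and 11.14, a difference of 0.16. Pkp3, which encodes plakophilin 3, was at 7.34 and 7.51, a difference of 0.17. The 3 differences were close to each other, and all were past 1.1-fold under each scaling, against 8.36% to 11.02% of all genes.

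The regulators of the epithelial state had small differences of either sign. Grhl2, the grainyhead-like factor that activates Cdh1 and claudin genes, was listed at 8.94 on both arrays. Its relative Grhl1 read 7.01 on the wild type array and 7.06 on the knockout array, a difference of 0.053. Ovol2, a zinc finger repressor of mesenchymal genes, was at 7.86 and 7.79, a difference of -0.074. Esrp1 and Esrp2 direct epithelial splicing, among others of Fgfr2, the receptor of Fgf10. Esrp1 was at 10.12 and 10.20 and Esrp2 at 9.24 and 9.31, differences of 0.077 and 0.064. None of these 5 regulators reached 1.1-fold as deposited or under any of the scalings.

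Membrane serine proteases and their inhibitors were higher together. St14 encodes matriptase, which activates prostasin, the product of Prss8, and both are held in check by the Kunitz inhibitors Spint1 and Spint2. St14 read 9.76 on the wild type array and 9.98 on the knockout array, a difference of 0.22 (1.16-fold). Prss8 was at 9.88 and 10.03, a difference of 0.15 (1.11-fold). Tmprss2, another transmembrane serine protease of airway epithelium, was at 8.14 and 8.31, a difference of 0.17. The inhibitors went the same way as the proteases: Spint1 was at 9.49 and 9.75, a difference of 0.26, and Spint2 at 10.29 and 10.40, a difference of 0.10. All but Spint2 were past 1.1-fold, against 9.05% of all genes at least 1.1-fold higher as deposited.

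Apical transport and membrane genes were higher in 5 of 6 (median 0.20), against 33.4% of all genes as deposited. Under equal medians 71.8% of all genes were higher, so the share beside this count depends on the scaling. Rab25 read 9.26 on the wild type array and 9.56 on the knockout array, a difference of 0.30 (1.23-fold). Myo5b, the myosin motor that works with Rab11 family GTPases in apical recycling, was at 8.31 and 8.55, a difference of 0.24. Both of these recycling genes were among the 9 above the 95th percentile of all genes. Ap1m2, the epithelial subunit of the clathrin adaptor AP-1 for basolateral sorting, was at 8.62 and 8.78, a difference of 0.16. Mal2, a membrane protein of transcytosis to the apical side, was at 11.70 and 11.86, a difference of 0.16. These transport genes and Tmem30b (0.33) were past 1.1-fold, against 9.05% of all genes as deposited. Prom1, which encodes prominin, a protein of apical membrane protrusions, was the exception, at 8.90 and 8.82, a difference of -0.083.

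**Figure D3:**
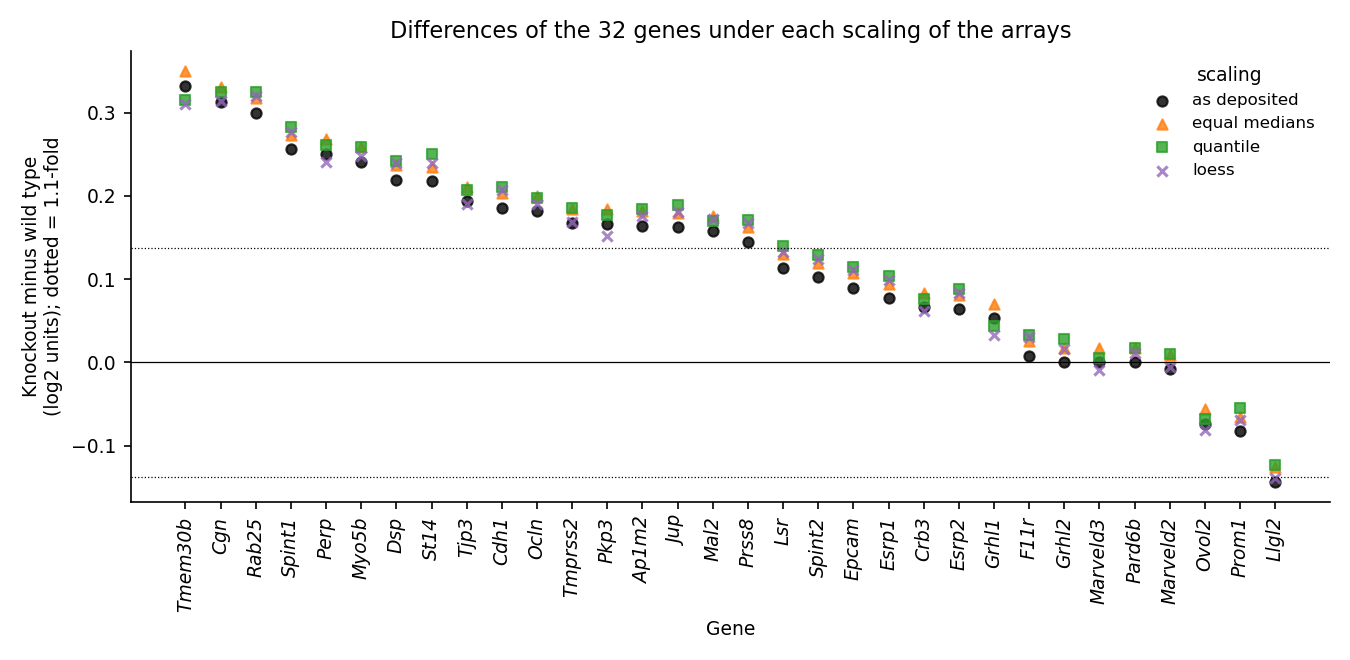
Knockout minus wild type difference (log2 units, y axis) of each of the 32 genes (x axis, ordered by the deposited difference) as deposited and under 3 other scalings; dotted lines mark 1.1-fold. The same 17 genes lie above 1.1-fold under every scaling, Lsr joins them under quantile scaling, and Llgl2, Prom1 and Ovol2 lie below 0 under every scaling.

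Genes of related function were described from lists around the 32. Of 9 other desmosome genes found, 6 were higher, 0 lower and 3 equal, with a median of 0.089 (0.18 with the filter at the median gene and 0.00 with the filter at the 75th percentile). Pkp2, plakophilin 2, differed by 0.30 and Ppl, the desmosomal plaque protein periplakin, by 0.27. Of 25 other genes of epithelial membranes and regulation, 20 were higher and 2 lower. Their median was 0.12, with 12 at least 1.1-fold higher. The zinc finger factor gene Klf5 (0.40) and the membrane protein gene Tmc4 (0.37) had the largest differences among its brighter members. In both lists higher genes outnumbered lower ones. Of all genes, 33.4% were higher, 33.2% lower and 9.05% at least 1.1-fold higher. In the brighter range lay 12 of the 25, of which 10 were higher and 1 lower, and 4 of the 9 desmosome genes, of which 3 were higher and 0 lower. The lists were chosen with earlier results of these data known.

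Junction and polarity genes that many tissues share had a balance close to that of all genes. Of 26 found, 9 were higher (34.6%), 10 lower (38.5%) and 7 equal (26.9%), against 33.4%, 33.2% and 33.5% of all genes. The median of the 26 was 0.00 (at most 0.019 under the other scalings). Past 1.1-fold stood 1 higher gene and 4 lower genes, against 9.05% and 5.96% of all genes and 3.72% and 7.41% of the brighter genes. The atypical protein kinase C gene Prkcz differed by 0.20 (8.46 in wild type and 8.67 in knockout). Jam2, a junctional adhesion molecule also made by endothelium, differed by -0.26. Of the 26, 23 lay in the brighter range, where 23.3% of genes were higher and 49.2% lower as deposited. The difference between these lists and the 32 genes could not be tested with 1 array a group.

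Keratins and claudins, left out of the 32, stood at either side of them. All 4 keratins of simple epithelium were higher, with a median of 0.39, Krt18 by 0.47, Krt19 by 0.45 and Krt8 by 0.33. Of all genes 33.4% were higher and 33.2% lower, and of 13 claudins 7 were higher and 4 lower. Their median was 0.024 (0.041 to 0.046 under the other scalings, 0.012 and 0.0056 under the filters on level). Cldn7 differed by 0.22, Cldn6 by 0.083 and Cldn3 by 0.053, and Cldn4 was equal on both arrays. Cldn10 differed by 0.32 and Cldn18, a claudin of lung epithelium, by -0.27.

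Repressors of epithelial genes and mesenchymal structural genes are read against the brighter genes of the array, since 13 of these 14 lay in that range, where 49.2% of genes were lower and 27.6% equal as deposited. Of 8 repressors of epithelial genes 5 were lower, 3 equal and 0 higher, with a median of -0.074, and of -0.051 to -0.057 under the other scalings; these are also genes of mesenchyme. Under equal medians 3 of the 8 were higher and 5 lower. Twist2 differed by -0.39, Zeb2 by -0.21, and Zeb1 was equal on both arrays. Of 6 mesenchymal cytoskeleton and adhesion genes 4 were lower and 0 higher. Vim, which encodes vimentin, differed by -0.076, Fn1, which encodes fibronectin, by -0.058 and Cdh2, which encodes N-cadherin, was equal. The median of these 6 genes was -0.016, and 0.0012 under equal medians, so it carries no direction.

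Markers of the cell types of the lung are given beside the 32 genes. Lung epithelium markers were higher in 6 of 12 and lower in 6, and past 1.1-fold stood 0 higher and 5 lower ones. Of the brighter genes, 3.72% were at least 1.1-fold higher and 7.41% lower as deposited. The median difference of the 12 markers was 0.014. Their mean level was 9.97 in wild type and 9.81 in knockout, and this mean includes Sftpc, with the largest difference of the 12 (-1.12). The lineage factors Nkx2-1, Foxa2 and Foxa1 differed by 0.12, 0.10 and -0.043. The 5 past 1.1-fold were Sftpc (-1.12), Shh (-0.41), Sox9 (-0.32), Id2 (-0.31) and Muc1 (-0.27). All 12 had means in the brighter range, so the labelled tissue showed its epithelial markers. Of 12 lung mesenchyme markers 11 were lower (mean level 11.06 and 10.97), with Foxf1 at -0.40 and Fgf10, the higher one, at 0.40. All 7 smooth muscle markers were lower (mean level 10.70 and 10.47), with Myocd at -0.39 and Cnn1 at -0.31. Endothelium markers were lower in 5 of 8 (10.18 and 10.14), with Sox17 at -0.15 and Pecam1 at -0.085. All mesenchyme, smooth muscle and endothelium markers lay in the brighter range. There 49.2% of genes were lower and 7.41% at least 1.1-fold lower as deposited. At least 1.1-fold lower were 4 of the 12 mesenchyme, 6 of the 7 smooth muscle and 1 of the 8 endothelium markers.

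Markers of other cell types, some of which carry junctions, had differences of either sign. Mesothelium markers, whose cells also form junctions, were higher in 4 of 6 (8.53 and 8.59), with Bnc1 at 0.20 and Upk3b at -0.086. Markers of stratified epithelium of the esophagus and trachea were higher in 3 of 5 (7.04 and 7.12), with Foxe1 at 0.027 the one in the brighter range. Leukocyte markers were lower in 4 of 6 (7.84 and 7.76; Mrc1 at -0.17, Csf1r at -0.15) and erythroid markers in 4 of 5 (9.79 and 9.67; Slc4a1 at -0.26, Hba-x at -0.25). Neuron and Schwann cell precursor markers (1 of 3 lower) and neuroendocrine markers (2 of 3 lower) had no gene in the brighter range. As deposited, 33.4% of all genes were higher and 33.2% lower, and 23.3% and 49.2% of the brighter genes. The part of these cell types in the differences of the 32 genes was not tested.

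**Figure D4:**
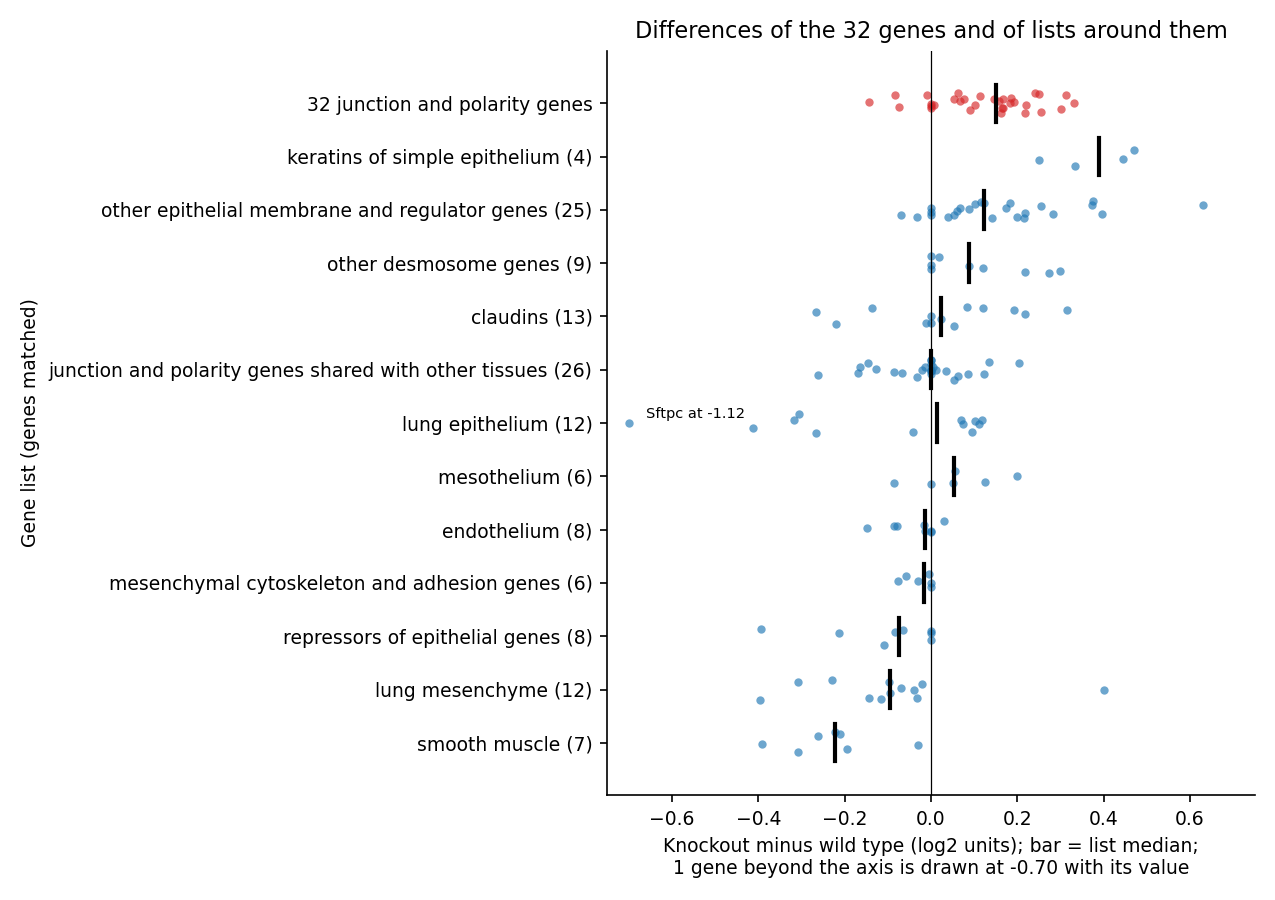
Knockout minus wild type difference (log2 units, x axis) of each gene (point) in the 32 junction and polarity genes (red) and in 12 lists around them (blue); bars are list medians. The median is 0.15 for the 32 genes, 0.39 for keratins, 0.00 for junction and polarity genes shared with other tissues and -0.22 for smooth muscle markers.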

How the data were processed

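Biotin-labelled total RNA of embryonic lung was read on Affymetrix arrays, per the labels' protocols, after 3 samples a group had been pooled, per the series' design. The authors' deposited values were read as log2 from their range; log base, summary method and normalization are not given in the sources used here. Of 35557 probe sets, 28.2% had equal values in both columns (tolerance 1e-09).

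Names came from the platform annotation, in which 21789 probe sets had 1 symbol, 1621 several and 12147 none. All matched genes were used with no filter on level, pseudocount or floor. With 1 array per group no test was run. Genes were counted past 1.1-fold, 1.25-fold (0.3219 in log2), 1.5-fold and 2-fold. The alternatives were equal medians, quantile and loess (span 0.3) scaling, the mean over probe sets, filters at the median and the 75th percentile of gene means, and the list mean. The 32 genes and all lists were chosen with earlier results of these data known. Named genes were all 32, fixed reference genes, and the 2 brighter genes of each list with the largest differences. Outside this rule, Foxa1, Sox9, Id2, Muc1, Eif2s3y and Kdm5d were also named, as were the genes under other observations. Steps were tested on simulated data. Comparison of proteins was not run. Python 3.11.15, numpy 2.4.6, pandas 2.3.3, statsmodels 0.14.6 and matplotlib 3.10.9 were used.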

Additional observations from a re-analysis of the deposited data

How the results depend on the processing

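No array could be left out, since each genotype has only 1. No paired analysis was possible because each group has 1 pooled array. The median of the 32 genes lay between 0.12, for the list mean, and 0.17 over all settings. Of the counts, 25 genes were higher and 4 lower, and 17 were at least 1.1-fold higher and 1 lower as deposited. With the filter at the 75th percentile, which leaves 10 genes, 10 were higher and 0 lower, 6 at least 1.1-fold higher and 0 lower. The count at least 1.1-fold lower was 0 with equal medians and 0 with quantile scaling. As deposited, at a log2 difference of 0.3219 1 was higher and 0 lower, at 1.5-fold 0 and 0, and at 2-fold 0 and 0. Which genes passed 0.3219 changed with the scaling. Under equal medians Tmem30b (0.350) and Cgn (0.331) passed, and under quantile scaling Cgn (0.325) and Rab25 (0.325), with Tmem30b short of it at 0.316. With loess the largest difference, that of Rab25 (0.320), fell short. Of 93 alternative values of role and list medians 72 stayed within 1.5 times and of one sign. The other 21 moved, all in medians near 0 or in lists made smaller by a filter. Some of the 72 were fixed in advance. The mean over probe sets cannot change a role median, since each of the 32 genes has 1 probe set. A filter that removes no gene of a list leaves its median as it was. The 72 is therefore no measure of stability. No tight junction, polarity or transcription factor gene passed the filter at the 75th percentile, so those medians have no value there. Dim signals of 6 of the 32 genes and the number of arrays limit these values.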

Other observations

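Chosen after the values were seen, 3 genes of epithelial membranes outside the 32 had differences near or above the largest among them. Mal, a relative of Mal2 in apical sorting, read 7.30 on the wild type array and 7.93 on the knockout array, a difference of 0.63 (1.55-fold), with a mean below that of the median gene. Ano1, which encodes a chloride channel, was at 9.65 and 10.02, a difference of 0.37 (1.30-fold). Stx19, which encodes an epithelial syntaxin, was at 6.88 and 7.16, a difference of 0.28, in the dim range. All 3 belong to the list of other epithelial membrane and regulator genes.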
